A study of Homo sapiens with 12 samples.

Results

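The genes described here are 9 enzymes that supply and use one-carbon units: MTHFD1, MTHFD2, MTHFD1L, SHMT1, SHMT2, ALDH1L1, MAT2A, CBS and NNMT. They were taken by symbol from RNA sequencing count tables that list 46350 named genes, and each symbol matched 1 row. The study sequenced SKOV3, an established line of human epithelial ovarian cancer that is sensitive to cisplatin, and SKOV3/DDP, a line resistant to it, each with no agent or with paeonol (PAE), a phenolic compound. The 4 groups were SKOV3, SKOV3_PAE, SKOV3/DDP and SKOV3/DDP_PAE, with 3 libraries each and 12 in all. The labels give neither the dose nor the duration of PAE, no vehicle and no batch, and the series text speaks of both biological and experimental triplicates, so p-values measure the spread between these libraries, which may be partly technical. Each line is 1 line of cells, so a difference between SKOV3 and SKOV3/DDP is a difference between these cultures and not a test of cisplatin resistance.

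Folate carries single carbons between metabolites in parallel pathways of the cytosol and the mitochondrion. Serine hydroxymethyltransferases (SHMT1 in the cytosol, SHMT2 mainly in the mitochondrion) move a carbon from serine to tetrahydrofolate. MTHFD1 in the cytosol and the pair MTHFD2 and MTHFD1L in the mitochondrion interconvert the folate-bound carbon, which leaves as formate or as the 10-formyl group used to build purine rings, while ALDH1L1 burns cytosolic 10-formyl-tetrahydrofolate to carbon dioxide. The methionine cycle uses a folate carbon to remake methionine. MAT2A turns methionine into S-adenosylmethionine, NNMT spends it on methylating nicotinamide, and CBS draws homocysteine out of the cycle towards cysteine.

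The widest gaps between the lines were in 3 of these enzymes. No read of CBS or NNMT was counted in untreated SKOV3/DDP, whereas they averaged 78.8 and 998 CPM (read counts scaled to a common library total) in SKOV3. ALDH1L1 averaged 66 ± 17.5 CPM (SD, n = 3) in SKOV3/DDP and 3.18 ± 0.949 CPM in SKOV3. For PAE in SKOV3/DDP, MTHFD1 and ALDH1L1 were called lower, 22.2% of the 9 against 26.4% of all genes. CBS had 0 counts in both of these groups and could not be called, and NNMT had 0 and 3, so 7 of the 9 had a fold. The calls of MTHFD1 and ALDH1L1 were lost without the second PAE library, a fit that called 18.8% of all genes. With all libraries in, the mitochondrial enzymes MTHFD2, SHMT2 and MTHFD1L did not pass the test for PAE in SKOV3/DDP. Of the 3 untreated libraries of that line, 1 held several times as much MTHFD2 and SHMT2 as the other two. In SKOV3, 8 of the 9 enzymes passed the test with PAE, in a comparison that called 75.3% of all genes and followed the GC content of the transcripts.

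Libraries held between 14610008 and 18263479 counts, and CPM were scaled by TMM factors, which even out composition between libraries and ranged from 0.644 to 1.23. Deviations of log2 CPM from the mean over libraries were correlated with transcript GC content at a Spearman rho of 0.759 to 0.792 in each untreated SKOV3 library, and of -0.683 to -0.457 in the other 9. As that mean runs over all 12 libraries, the negative values follow in part from the positive ones and by themselves show no opposite trend in the 9. The correlations run over 10437 genes, which are no independent replicates. Comparisons that use untreated SKOV3 cannot be told apart from this trend. Most changes in them are therefore also given without the trend. There, the part of log2 CPM that a spline on GC content and length accounts for was taken out. Among the untreated SKOV3/DDP libraries, the second stood apart: its chi-square per gene against the others was 89.6 and 82.4, against 15.0 between the first and the third. The third SKOV3/DDP_PAE library was apart too, at 61.5 and 78.4 against 19.8 between the others, and held 3.93% mitochondrial counts against 6.76% and 8.67%. Without it the enzymes called for PAE in SKOV3/DDP were again 2, with 21.1% of all genes called. Mitochondrial counts made up 1.29 to 1.96% in SKOV3 and 8.66 to 11.2% in untreated SKOV3/DDP, and 18478 to 18766 genes had a count in untreated SKOV3 against 22078 to 23823 in the other 9 libraries. The part of these in the results was not tested. All 5 epithelial markers averaged at least 1 CPM in every group. The 6 intestinal markers summed to 493 to 547 CPM in SKOV3/DDP, and all 6 were at 0 in SKOV3. Most of that sum was CDH17 and CDX2 at 339 and 163 CPM, while GPA33 and KRT20 were at 0.926 and 0.209 CPM. The 7 ovarian and Müllerian markers summed to 341 to 438 CPM in SKOV3/DDP and 3631 to 3926 CPM in SKOV3, with SOX17 and EMX2 at 0 in both lines and WT1 at 0 in SKOV3. Most of the difference in these was KRT7 (3607 CPM in SKOV3 and 1.22 CPM in SKOV3/DDP), PAX8 was at 29.7 and 4.13 CPM, and MSLN went the other way, at 149 and 388 CPM. ERBB2, the marker listed for SKOV3, was at 306 CPM in SKOV3 and 96.5 CPM in SKOV3/DDP. The part of line identity in the differences below was not tested. In RNA from whole cultures, fewer cells of a kind and less RNA per cell cannot be told apart.

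**Figure D1:**
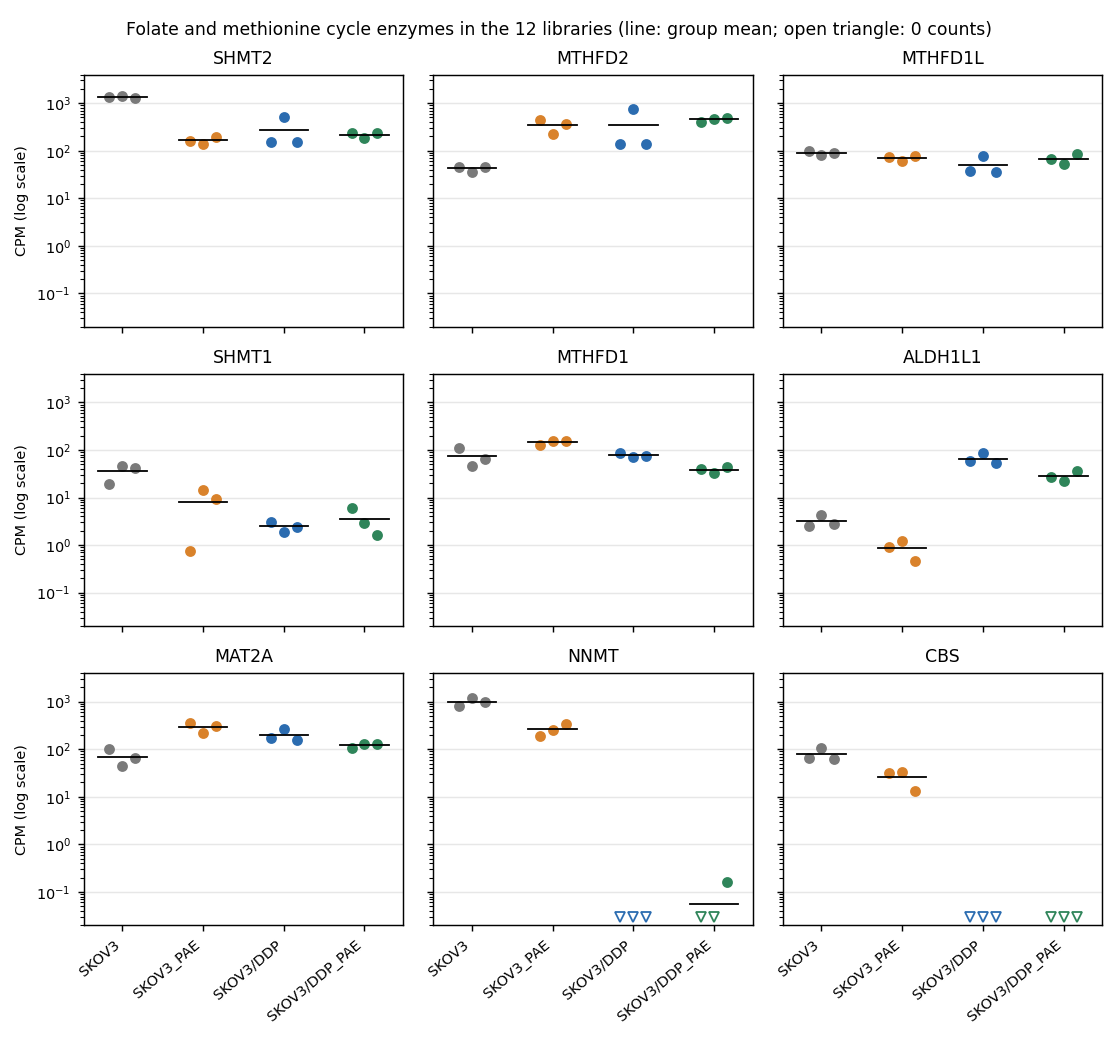
CPM of each of the 9 enzymes (vertical axis, log scale) in the 12 libraries, by group (horizontal axis), with the group mean as a line and libraries with 0 counts as open triangles. CBS and NNMT sit at or near 0 in both SKOV3/DDP groups, ALDH1L1 is higher there than in SKOV3, and the second untreated SKOV3/DDP library lies above the other two in SHMT2, MTHFD2 and MTHFD1L.

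SHMT2 is encoded on chromosome 12 (57229685 to 57234935, GRCh38, plus strand; gene ID 6472). It stood at 1361, 1441 and 1289 CPM in the 3 untreated SKOV3 libraries and at 160, 138 and 199 CPM in SKOV3_PAE. Untreated SKOV3/DDP libraries held 152, 521 and 150 CPM, and those with PAE 236, 189 and 234 CPM. The untreated SKOV3 libraries thus lay above all others, and the other 3 groups overlapped one another. The log2 fold change with PAE in SKOV3 was -3.04 ± 0.40 (SE; edgeR adjusted p = 5.51e-06), below the quartiles of -2.37 and -0.67 of genes with 55 to 60% GC, whose median was -1.62. With the GC and length trend removed it was -1.21 (edgeR adjusted p = 0.0179). Between the untreated lines the change of -2.31 ± 0.39 (edgeR adjusted p = 5.86e-05) lay within the quartiles of genes of like GC content and became -0.59 without the trend (edgeR adjusted p = 0.179). It was -3.17 ± 0.25 without the second SKOV3/DDP library (edgeR adjusted p = 3.13e-08). Neither the lines with PAE (0.40 ± 0.37, edgeR adjusted p = 0.382) nor PAE in SKOV3/DDP (-0.32 ± 0.37, edgeR adjusted p = 0.564) gave a call for SHMT2.

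MTHFD2 (chromosome 2, 74198591 to 74217565, plus strand; gene ID 10797) is the mitochondrial dehydrogenase and cyclohydrolase that is abundant in embryos and tumours. It was counted at 46.4, 35.8 and 46.4 CPM in SKOV3 and at 437, 225 and 363 CPM in SKOV3_PAE. SKOV3/DDP libraries held 141, 745 and 137 CPM, and those with PAE 410, 466 and 492 CPM. Untreated SKOV3 was the lowest group with no overlap, and the second SKOV3/DDP library was the highest of the 12. The log2 fold change was 3.00 ± 0.53 for PAE in SKOV3 (edgeR adjusted p = 0.000106) and 2.99 ± 0.53 between the untreated lines (edgeR adjusted p = 9.45e-05), the latter being 1.70 ± 0.26 without the second SKOV3/DDP library (edgeR adjusted p = 2.34e-05). Genes with 40 to 45% GC moved by a median of 2.59 and 2.37 in these comparisons, which share the untreated SKOV3 libraries. Without the trend the MTHFD2 values were 0.37 (edgeR adjusted p = 0.546) and 0.50 (edgeR adjusted p = 0.36).

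In SKOV3/DDP, the PAE effect on MTHFD2 depended on the second untreated library. With all 6 libraries the log2 fold change was 0.42 ± 0.49 (edgeR adjusted p = 0.568). Without that library it was 1.71 ± 0.27 (edgeR adjusted p = 0.000674), the change of MTHFD1L went from 0.46 ± 0.27 (edgeR adjusted p = 0.227) to 0.90 ± 0.24 (edgeR adjusted p = 0.0144), and that of SHMT2 turned to 0.54 ± 0.22 (edgeR adjusted p = 0.0849). With all libraries 2 enzymes and 26.4% of genes were called, and without that library 4 enzymes and 24.4% of genes. The library differed in more than these enzymes: 7.69% of the 17133 genes tested were at least 2 times as high in it as in either of the other SKOV3/DDP libraries, against 3 of the 9 enzymes (SHMT2, MTHFD2 and MTHFD1L) and 7 of 50 further genes of the pathway. Those 7 included NMNAT3, on 1 count over the untreated SKOV3/DDP group, and BHMT, on 39, so part of that number lies at the limit of counting. Among the 7 were also all 3 enzymes of serine synthesis from glycolysis, singled out after their values were seen. Untreated SKOV3/DDP held 70.8, 464 and 78.9 CPM of PSAT1, the aminotransferase. PSPH, the phosphatase that releases serine, stood at 44.5, 163 and 41.3 CPM, and PHGDH, the first dehydrogenase, at 67.4, 253 and 72.3 CPM. With PAE, PSAT1 was at 486, 571 and 527 CPM, above all untreated libraries, while PSPH at 121, 103 and 140 CPM and PHGDH at 237, 224 and 199 CPM lay between the second and the other untreated libraries. None of the 3 was called for PAE in SKOV3/DDP, with log2 fold changes of 1.37 for PSAT1 (edgeR adjusted p = 0.0936), 0.55 for PSPH (edgeR adjusted p = 0.338) and 0.75 for PHGDH (edgeR adjusted p = 0.187).

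**Figure D2:**
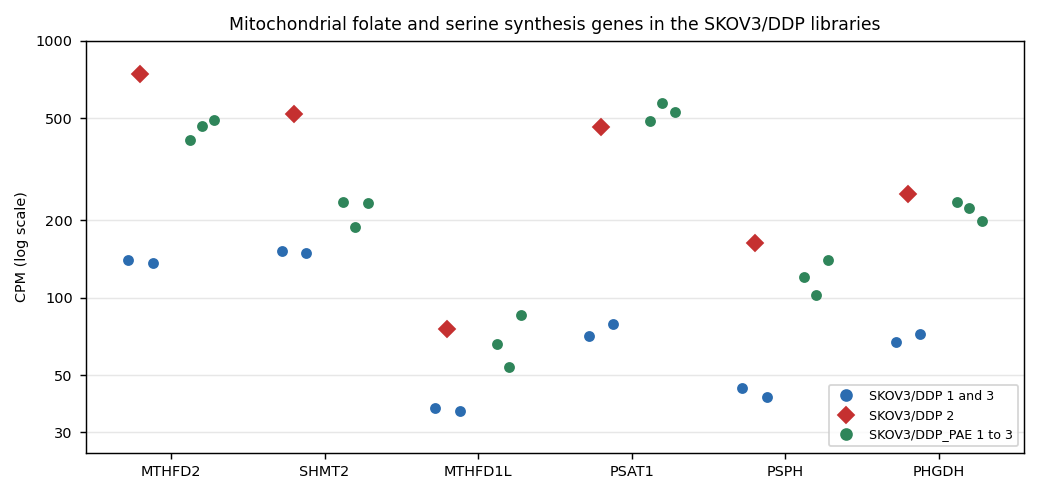
CPM (vertical axis, log scale) of 3 mitochondrial folate enzymes and 3 serine synthesis enzymes in the 6 SKOV3/DDP libraries, with the second untreated library as red diamonds, the other untreated libraries in blue and the PAE libraries in green. For all 6 genes the red diamond lies above both blue points, as for MTHFD2 with 745 against 141 and 137 CPM.

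MTHFD1L (chromosome 6, 150865684 to 151101887, plus strand; gene ID 25902) makes formate in the mitochondrion and is the counterpart of the synthetase part of cytosolic MTHFD1 (chromosome 14, 64388353 to 64460025, plus strand; gene ID 4522). The 50 bases on either side of an annotated start are printed for this pair because their counts parted with PAE in SKOV3/DDP. They come from RefSeq (GRCh38.p14), which gave promoters for 7 of the 9 enzymes, NNMT and SHMT2 being the other two. Capitals mark the motifs searched on both strands, CACGTG (the E-box, read by MYC and related factors) and TGATGNAA (the C/EBP-ATF element, read by ATF4), which do not overlap here.
MTHFD1, chr14:64388303-64388402, plus strand: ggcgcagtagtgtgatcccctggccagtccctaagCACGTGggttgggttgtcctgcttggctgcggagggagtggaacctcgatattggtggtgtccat
MTHFD1L, chr6:150866283-150866382, plus strand: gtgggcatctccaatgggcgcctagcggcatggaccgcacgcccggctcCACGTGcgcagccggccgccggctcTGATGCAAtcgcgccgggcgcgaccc

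The E-box begins 15 bases before the MTHFD1 start and 1 base before this MTHFD1L start, and the C/EBP-ATF element begins at base 25 of the MTHFD1L transcript. Of the 7 enzymes with a promoter of 300 bases in the table, 2 held an E-box and 1 the C/EBP-ATF element in at least 1 window. Counted by window, as for the background, these were 4 and 3 of 13, of which 3 are windows of MTHFD1L that hold both motifs and overlap one another. Over all 35116 promoter windows of that length the shares were 7.26% and 3.62%. These matches describe letters in a window and not binding.

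MTHFD1L stood at 96.9, 82.6 and 88.2 CPM in SKOV3 and 73.3, 62.3 and 76.7 CPM in SKOV3_PAE. SKOV3/DDP libraries stood at 37.4, 75.8 and 36.2 CPM, and with PAE at 66.3, 53.8 and 86.0 CPM. SKOV3 lay above the other untreated line in every library, and the SKOV3/DDP groups overlapped only through the second untreated library. Between the untreated lines the log2 fold change was -0.84 ± 0.27 (edgeR adjusted p = 0.0107), and -1.17 without the GC trend (edgeR adjusted p = 0.00133). With PAE in both lines it was -0.04 ± 0.27 (edgeR adjusted p = 0.906), and for PAE in SKOV3 it was -0.34 ± 0.27 (edgeR adjusted p = 0.276), a sign that reversed when libraries were scaled by their totals only. Without the trend the change for PAE in SKOV3 was -0.50 (edgeR adjusted p = 0.124).

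MTHFD1 itself was at 111, 45.3 and 66 CPM in SKOV3 and at 129, 155 and 152 CPM in SKOV3_PAE. In SKOV3/DDP the values were 84.7, 69.6 and 76.0 CPM, and with PAE 39.4, 32.7 and 43.0 CPM. The SKOV3/DDP_PAE libraries were the lowest 3 of all 12, and SKOV3_PAE the highest 3. MTHFD1 was thus lower with PAE in SKOV3/DDP, by a log2 fold change of -1.0 ± 0.27 (edgeR adjusted p = 0.0143), and -1.01 with the GC trend removed (edgeR adjusted p = 0.00337). Leaving out the first untreated SKOV3/DDP library or the second PAE library ended that call (-0.89, edgeR adjusted p = 0.0597, and -0.86, edgeR adjusted p = 0.0662). Among PAE libraries SKOV3/DDP was lower than SKOV3, with a log2 fold change of -1.92 ± 0.28 (edgeR adjusted p = 3.47e-05). Between the untreated lines MTHFD1 was not called (0.05 ± 0.27, edgeR adjusted p = 0.869), but it was called lower in SKOV3/DDP without the trend (-0.65, edgeR adjusted p = 0.0149). The rise with PAE in SKOV3, 0.97 ± 0.27 (edgeR adjusted p = 0.00421), was below the median of 1.21 for genes with 45 to 50% GC and was 0.20 without the trend (edgeR adjusted p = 0.459). ZBTB25 overlaps MTHFD1 on the opposite strand with a mean of 20.9 CPM, and the strand of counting is not given in the sources used here.

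SHMT1 (chromosome 17, 18327873 to 18363560, minus strand; gene ID 6470) was scarce outside untreated SKOV3. It held 19.3, 46.2 and 40.9 CPM in SKOV3 and 0.755, 14.5 and 9.47 CPM in SKOV3_PAE. The SKOV3/DDP libraries held 3.11, 1.89 and 2.39 CPM, and with PAE 6.03, 2.87 and 1.65 CPM. Untreated SKOV3 was the highest group without overlap, and the other 3 groups had at least 1 library below 4 CPM each. The log2 fold change between the untreated lines was -3.84 ± 0.75 (edgeR adjusted p = 0.000217) and that for PAE in SKOV3 was -2.10 ± 0.68 (edgeR adjusted p = 0.0112). Both lay below the lower quartile of genes with 50 to 55% GC, which was -1.97 and -1.46, and both stayed called without the trend, at -3.64 (edgeR adjusted p = 0.00077) and -1.84 (edgeR adjusted p = 0.0409). Between the lines with PAE the difference of -1.23 ± 0.68 did not pass (edgeR adjusted p = 0.143), and it passed without the first SKOV3_PAE library (-1.77, edgeR adjusted p = 0.00694).

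ALDH1L1 (chromosome 3, 126103565 to 126197758, minus strand; gene ID 10840) had the widest gap in favour of SKOV3/DDP. It was at 2.48, 4.26 and 2.80 CPM in SKOV3 and at 0.930, 1.22 and 0.474 CPM in SKOV3_PAE. Untreated SKOV3/DDP was at 57.9, 86.1 and 54.1 CPM, and with PAE at 27.6, 21.8 and 37.0 CPM. No 2 groups overlapped. Between the lines the log2 fold change was 4.37 ± 0.35 untreated (edgeR adjusted p = 2.57e-08) and 5.03 ± 0.38 with PAE (edgeR adjusted p = 4.45e-08), while genes with 55 to 60% GC had medians of -1.66 and -0.02. Without the trend the change between the untreated lines was 5.86 (edgeR adjusted p = 5.69e-09). ALDH1L1 was lower with PAE in SKOV3/DDP by -1.20 ± 0.30 (edgeR adjusted p = 0.00979), a call that was lost without the second PAE library (-1.0, edgeR adjusted p = 0.0529). The fall with PAE in SKOV3 of -1.85 ± 0.37 (edgeR adjusted p = 0.000352) rested on 111 and 49 counts, lay within the quartiles of genes of like GC content and was -0.26 without the trend (edgeR adjusted p = 0.561). ALDH1L2, its mitochondrial counterpart, did not exceed 1.10 CPM in any library.

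Within a library, the ratio of a mitochondrial to a cytosolic enzyme does not depend on how libraries are scaled, although it does carry the GC trend where the enzymes differ in GC content. The ratios are of counts without correction for gene length, so their sign does not tell which enzyme had more transcripts. MTHFD2 over MTHFD1 had log2 ratios of -1.26, -0.34 and -0.51 in SKOV3 and 1.76, 0.53 and 1.26 in SKOV3_PAE. In SKOV3/DDP the ratios were 0.74, 3.42 and 0.85, and with PAE 3.38, 3.83 and 3.52. Only the second untreated library of SKOV3/DDP reached the range of its PAE group. Without the trend, the mean difference with PAE in SKOV3 went from 1.89 to 0.10 and that between the untreated lines from 2.37 to 0.65, both then with overlap. With PAE, SKOV3/DDP exceeded SKOV3 by 2.39, and by 2.36 without the trend, with no overlap in either (exact permutation test, 2-sided, p = 0.1, the smallest that 3 libraries against 3 can give).

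The log2 ratio of MTHFD1L over MTHFD1 was -0.20, 0.87 and 0.42 in SKOV3 and -0.82, -1.32 and -0.99 in SKOV3_PAE. The SKOV3/DDP values were -1.18, 0.12 and -1.07, and with PAE 0.75, 0.72 and 1.00. Gene lengths were listed at 13439 bases for MTHFD1L and 3154 for MTHFD1. Per length, MTHFD1L stayed below MTHFD1 in every library, with ratios of 0.395, 0.386 and 0.469 in SKOV3/DDP_PAE. The mean log2 ratio of counts differed by -1.40 with PAE in SKOV3 and by 1.53 in SKOV3/DDP, each without overlap between treated and untreated libraries and each at the smallest permutation p of 0.1. Without the trend these became -0.76, with overlap (exact permutation p = 0.300), and 1.58, still without overlap. No test of the difference between the lines was run on this ratio. SHMT2 over SHMT1 had group means between 5.13 and 6.56 and overlapped in every comparison, and without the trend the untreated lines did not overlap (difference 2.69).

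**Figure D3:**
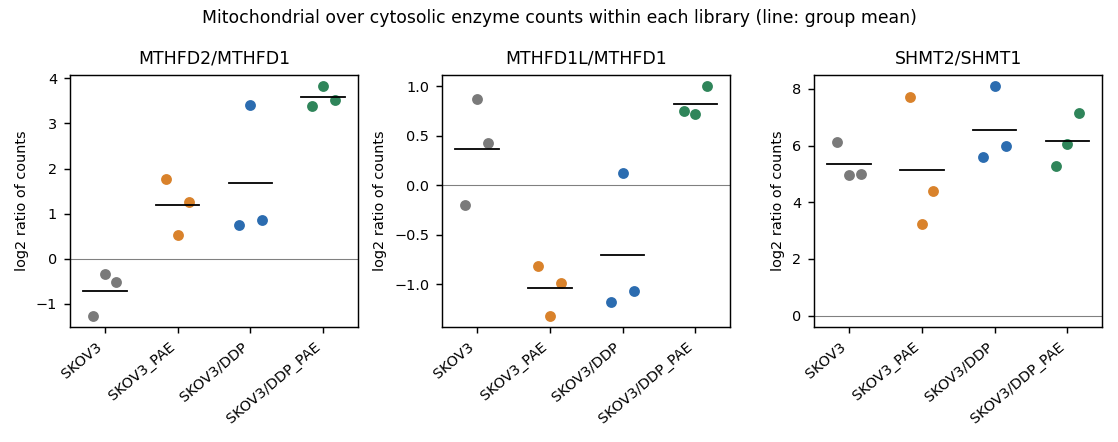
Log2 ratio of the counts of a mitochondrial to a cytosolic enzyme (vertical axes) in each library, by group (horizontal axis), with group means as lines. MTHFD2 over MTHFD1 is highest in SKOV3/DDP_PAE with a mean of 3.58, MTHFD1L over MTHFD1 is positive in all SKOV3/DDP_PAE libraries and negative in all SKOV3_PAE libraries, and SHMT2 over SHMT1 overlaps between groups. Counts are not corrected for gene length, so the sign does not tell which enzyme had more transcripts.

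MAT2A (chromosome 2, 85539168 to 85545281, plus strand; gene ID 4144) is the catalytic subunit of the methionine adenosyltransferase of most tissues. It was counted at 101, 43.5 and 64.2 CPM in SKOV3 and at 357, 219 and 304 CPM in SKOV3_PAE. SKOV3/DDP libraries held 175, 260 and 159 CPM, and those with PAE 104, 130 and 130 CPM. The PAE libraries lay above the untreated ones in SKOV3 and below them in SKOV3/DDP. For SKOV3 the log2 fold change was 2.08 ± 0.30 (edgeR adjusted p = 1.58e-05), and 0.81 without the trend (edgeR adjusted p = 0.0107). The former lay within the quartiles of 0.00 and 2.25 of genes with 45 to 50% GC, whose median was 1.21. MAT2A has 45.6% GC, and genes with 40 to 45% had a median of 2.59. For SKOV3/DDP the log2 fold change was -0.70 ± 0.29 and missed the threshold (edgeR adjusted p = 0.0909), whereas the fit with the trend removed called it at -0.72 (edgeR adjusted p = 0.0295). Among PAE libraries, SKOV3/DDP was lower than SKOV3 by -1.27 ± 0.30 (edgeR adjusted p = 0.00209). Between the untreated lines it was higher by 1.51 ± 0.30 (edgeR adjusted p = 0.000262), which became 0.35 without the trend (edgeR adjusted p = 0.187). GGCX overlaps MAT2A on the opposite strand with a mean of 41.9 CPM. MAT2B, the regulatory subunit, rose with PAE in SKOV3 (2.65, edgeR adjusted p = 2.11e-07), a change that was -0.02 with the trend removed (edgeR adjusted p = 0.947), and gave no call for PAE in SKOV3/DDP (0.44, edgeR adjusted p = 0.194).

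NNMT (chromosome 11, 114257806 to 114313536, plus strand; gene ID 4837) stood at 827, 1186 and 982 CPM in SKOV3 and at 193, 256 and 342 CPM in SKOV3_PAE. It had 0 counts in all 3 SKOV3/DDP libraries, and 0, 0 and 3 counts in those with PAE. The gene was thus well counted in SKOV3 and at the limit of counting in SKOV3/DDP. Against a floor of 3 counts over the group it was at least 16582-fold lower in untreated SKOV3/DDP than in SKOV3. With PAE in both lines the ratio of SKOV3 to SKOV3/DDP was 5305 with a 95% exact Poisson interval of 1815 to 25722, which covers counting error of the 3 counts only. In SKOV3, NNMT was lower with PAE by -1.92 ± 0.33 (edgeR adjusted p = 0.000119). That was below the lower quartile of -1.46 for genes of like GC content, and -1.59 remained without the trend (edgeR adjusted p = 0.00117).

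CBS (chromosome 21, 43053190 to 43076873, minus strand; gene ID 875) was at 66.2, 108 and 62.3 CPM in SKOV3 and at 31.3, 32.7 and 13.2 CPM in SKOV3_PAE. All 6 SKOV3/DDP libraries had 0 counts. Against the floor of 3 counts over the group, CBS was at least 1309-fold lower in SKOV3/DDP than in SKOV3 untreated and at least 516-fold lower with PAE. In SKOV3 the change with PAE was -1.62 ± 0.36 (edgeR adjusted p = 0.00164), equal to the median of genes with 55 to 60% GC, and -0.06 without the trend (edgeR adjusted p = 0.91). CBSL is a near-identical copy of CBS, and reads may be split between them, so the level of either is uncertain. It was at 6.74, 7.75 and 1.61 CPM in SKOV3, at 0.755, 22.9 and 2.21 CPM in SKOV3_PAE and at 0 in every SKOV3/DDP library. Summing the pair, an alternative chosen after seeing the data, left the counts of enzymes called as they were. CTH, which follows CBS in the path to cysteine, was counted in both lines, at 2.22, 1.53 and 1.53 CPM in SKOV3 and 18.2, 24.1 and 15.5 CPM in SKOV3/DDP, and with PAE at 6.73 to 29.9 CPM and 15.0 to 15.4 CPM.

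**Figure D4:**
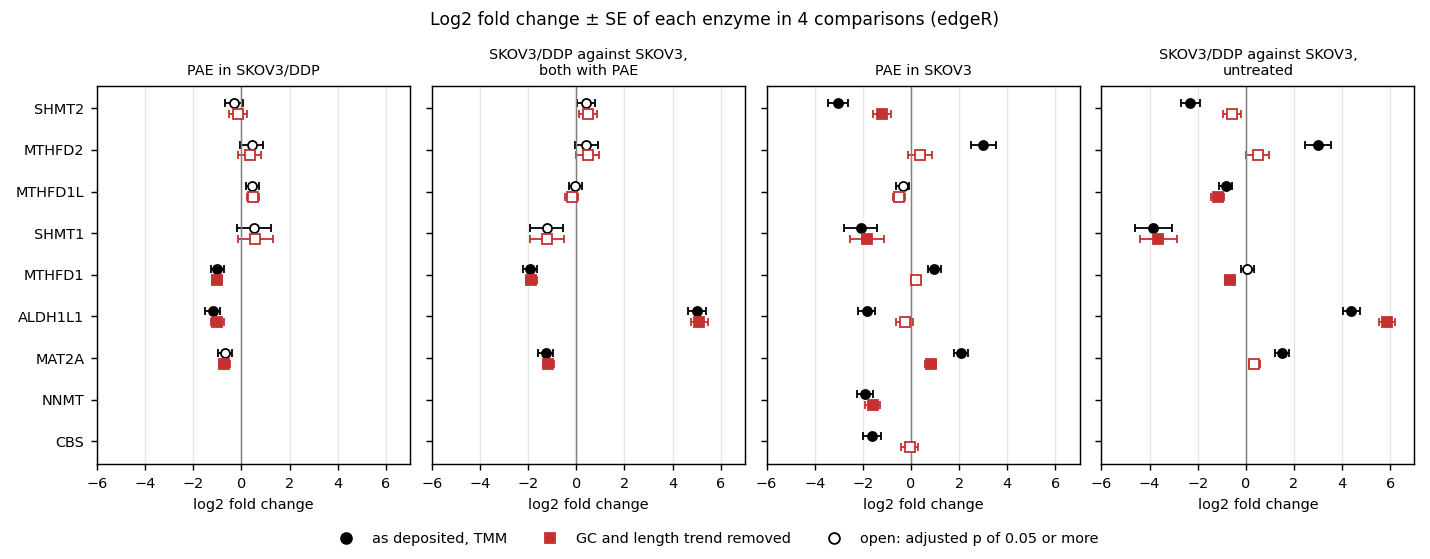
Log2 fold change with its SE (horizontal axes) for each enzyme in 4 comparisons, from the deposited counts (black circles) and with the GC and length trend taken out (red squares), filled where the adjusted p was under 0.05. CBS and NNMT are drawn only for PAE in SKOV3 because one or both groups of the other comparisons held 0 to 3 counts. The paired symbols nearly coincide in the left pair of panels and, for most enzymes, separate in the right pair, which use untreated SKOV3.

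Counted over the 9 enzymes, the comparison that uses no untreated SKOV3 library and both treatments of 1 line, PAE in SKOV3/DDP, called 2 (both lower, MTHFD1 and ALDH1L1), against 26.4% of the 17133 genes tested. Groups did not overlap for 3 of the 9, against 45.1% of genes. CBS, at 0 counts in both groups, could neither be called nor be free of overlap, and NNMT was at the limit of counting. The shares of the 9 in this comparison thus rest on 7 enzymes with a fold. Without the second untreated library 4 were called (2 higher, 2 lower), against 24.4% of genes. Without the first untreated library 1 was called, against 15.7%, and without the second PAE library 0 by edgeR, against 18.8%. With every library in, 3 had an unadjusted p under 0.05, and DESeq2 and limma-voom each called 2. With PAE in both lines, SKOV3/DDP against SKOV3 called 5 (ALDH1L1 higher, MTHFD1, MAT2A, CBS and NNMT lower) against 54.5% of genes, and 5 did not overlap, against 61.2%. PAE in SKOV3 called 8 (3 higher, 5 lower) against 75.3%, and all 9 did not overlap, against 77.4%. Untreated SKOV3/DDP against SKOV3 called 8 (3 higher, 5 lower) against 81.8%, and 8 did not overlap, against 83.2%. In the same order the enzymes' shares called were 22.2%, 55.6%, 88.9% and 88.9%, so no comparison stood far from its share of all genes. Scaling by library totals only gave splits of 4 higher and 4 lower between the untreated lines and 3 and 3 for PAE in SKOV3.

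With the GC and length trend removed, the enzymes called were 3 for PAE in SKOV3/DDP (all lower), 5 for the lines with PAE (1 higher, 4 lower), 4 for PAE in SKOV3 (1 higher, 3 lower) and 6 between the untreated lines (1 higher, 5 lower). All-gene shares in that fit were 32.6%, 59.9%, 50.1% and 69.9%. For PAE in SKOV3, 6 of the 9 enzymes lay within the quartiles of genes of like GC content, and for the untreated lines 5 did. For PAE in SKOV3/DDP 4 did, among them CBS, and for the lines with PAE 3. CBS had 0 counts in both groups of the former, so its fitted 0.00 is no fold and its place within the quartiles was fixed in advance. Quartiles hold 50% of genes by construction, so these counts do not set the enzymes apart from other genes.

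**Figure D5:**
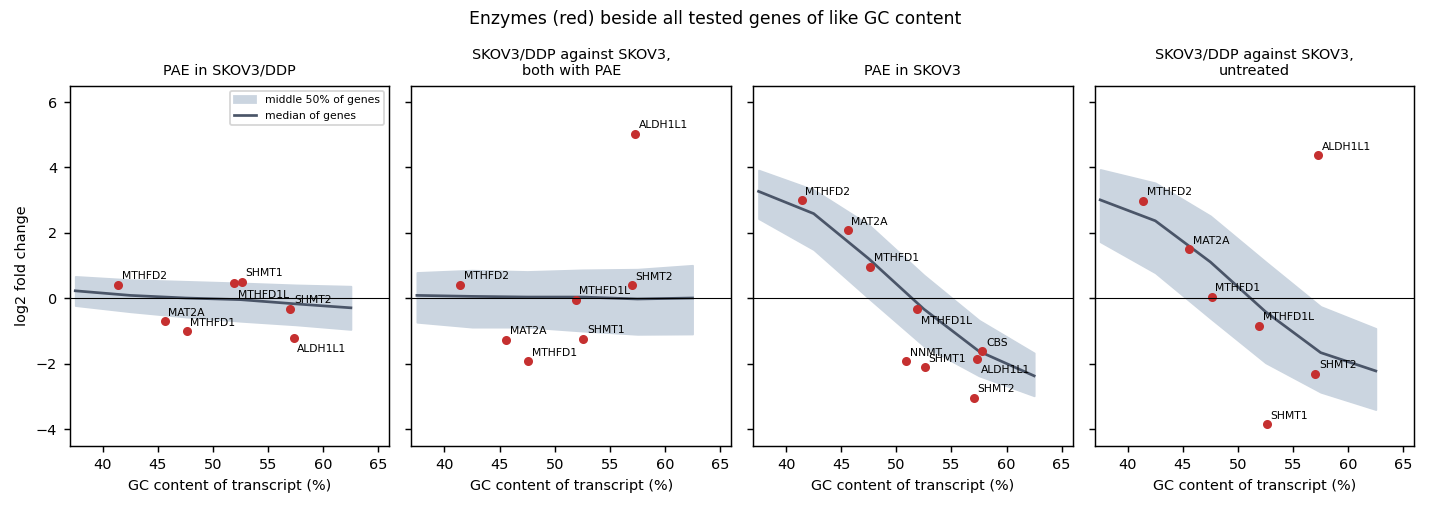
Log2 fold change (vertical axis) against GC content of the transcript in percent (horizontal axis) in 4 comparisons, with the median (line) and the middle 50% (band) of all genes tested in 6 GC classes and the enzymes in red. For PAE in SKOV3 the class medians run from 3.27 to -2.37 and 6 of the 9 enzymes lie in the band, whereas the band is nearly flat in the left pair of panels. CBS and NNMT are left out where a group held 0 to 3 counts.

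The effect of PAE differed between the lines for 6 of the 9 enzymes by the interaction term, against 62.9% of genes. CBS, at 0 counts in both SKOV3/DDP groups, could not be called there. MTHFD1 (-1.97 ± 0.38, edgeR adjusted p = 0.000343), MTHFD2 (-2.58 ± 0.71, edgeR adjusted p = 0.00505) and MAT2A (-2.78 ± 0.42, edgeR adjusted p = 3.79e-05) changed less upward or more downward in SKOV3/DDP than in SKOV3, while SHMT1 (2.61 ± 0.98, edgeR adjusted p = 0.0291) and SHMT2 (2.72 ± 0.54, edgeR adjusted p = 0.000407) changed in the other direction. NNMT was also called, on 0 and 3 counts in the SKOV3/DDP groups, so no size is given. Its call was lost on leaving out any untreated SKOV3/DDP library (edgeR adjusted p = 0.0552 to 0.061). It was lost too without the third SKOV3/DDP_PAE library, which held all 3 counts. Without the second SKOV3/DDP library MTHFD2 was at -1.29 ± 0.35 (edgeR adjusted p = 0.00482) and SHMT2 at 3.57 ± 0.30 (edgeR adjusted p = 5.15e-07). This comparison uses untreated SKOV3. Leaving out the second or the third SKOV3, the second SKOV3/DDP or the first SKOV3/DDP_PAE library ended the call of SHMT1 (2.02 to 2.50, edgeR adjusted p = 0.0552 to 0.0988). Without the trend 3 were called, against 42.1% of genes, of which MTHFD1 was at -1.21 (edgeR adjusted p = 0.00581) and MAT2A at -1.52 (edgeR adjusted p = 0.00217), and MTHFD1L, not called with it, at 0.98 (edgeR adjusted p = 0.0457). Scaling by library totals called 4 (1 higher, 3 lower).

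Per kilobase of gene length, SHMT2 was the highest of the 9 in untreated SKOV3 (509 CPM per kb, range 481 to 538), followed by NNMT (389, range 322 to 462), and neither overlapped its neighbour in that order. MAT2A, MTHFD1 and CBS followed with overlapping neighbours. In SKOV3_PAE the first 4 were MAT2A, NNMT, MTHFD2 and SHMT2 at 104, 103, 75.5 and 61.9 CPM per kb, each overlapping the next. In SKOV3/DDP they were SHMT2, MTHFD2 and MAT2A at 102, 75.4 and 70.3 CPM per kb, again overlapping. That order rests on the second library: in the first and the third MAT2A led at 62.0 and 56.4 CPM per kb, above SHMT2 at 56.7 and 55.9 and MTHFD2 at 31.2 and 30.2. In SKOV3/DDP_PAE MTHFD2 came first at 101 CPM per kb (range 90.6 to 109), above SHMT2 at 81.9 (range 70.4 to 88.1).

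A further 53 genes of the pathway in 9 lists, of which 50 were tested, set these enzymes in context. For PAE in SKOV3/DDP, 20 of the 50 were called (8 higher, 12 lower, or 11 higher and 9 lower when scaled by library totals), against 26.4% of all genes, with a median log2 fold change of -0.09 against 0.00. Leaving out 1 library at a time gave 14 to 20, with 15.7% to 24.4% of all genes called. Of the 6 genes of folate transport and retention tested, 3 fell and none rose, where 14.7% of all genes fell in this comparison. SLC19A1, the reduced folate carrier, was at 17.4, 15.9 and 14.4 CPM untreated and 4.12, 3.99 and 4.18 CPM with PAE (-1.95 ± 0.25, edgeR adjusted p = 0.000166). SLC46A1, the proton-coupled folate transporter, went from 31.7, 28.2 and 31.5 CPM to 13.2, 12.4 and 11.1 CPM (-1.32 ± 0.20, edgeR adjusted p = 0.000527). FPGS, which adds the glutamates that keep folate in the cell, was the third, named after its values were seen (-1.07 ± 0.20, edgeR adjusted p = 0.00171). The libraries of these 3 genes did not overlap between the groups.

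Of 6 genes of purine synthesis (PPAT, GART, PFAS, PAICS, ADSL and ATIC), 4 fell with PAE in SKOV3/DDP and none rose, against the same 14.7% of all genes. Lists this short were not tested as sets. PFAS was at 16.1, 13.1 and 16.3 CPM untreated and 4.37, 6.81 and 7.59 CPM with PAE (-1.28 ± 0.25, edgeR adjusted p = 0.00226). The others, named after their values were seen, were ATIC, which takes up the second formyl group (-1.17 ± 0.23, edgeR adjusted p = 0.00277), PAICS (-0.78 ± 0.20, edgeR adjusted p = 0.0118) and ADSL (-0.77 ± 0.22, edgeR adjusted p = 0.0177). GART, which takes up the first formyl group and was also chosen after its value was seen, missed the threshold at -0.86 ± 0.32 (edgeR adjusted p = 0.0562) and passed it without the trend (-0.91, edgeR adjusted p = 0.00878). In the methionine cycle 2 of 8 genes tested rose and 2 fell, and the former were AHCYL2, a relative of the S-adenosylhomocysteine hydrolase (1.11 ± 0.25, edgeR adjusted p = 0.00603), and MTRR, which reactivates methionine synthase (0.93 ± 0.25, edgeR adjusted p = 0.0146). ENOPH1 of methionine salvage rose from 54.0, 56.4 and 62.6 CPM to 134, 146 and 121 CPM (1.21 ± 0.20, edgeR adjusted p = 0.000849). AHCY, which clears S-adenosylhomocysteine, gave no call (-0.34 ± 0.19, edgeR adjusted p = 0.197), and MTHFD2L, the paralogue of MTHFD2, was at 12.7, 16.8 and 14.1 CPM untreated and 23, 29.6 and 23.3 CPM with PAE (0.80 ± 0.26, edgeR adjusted p = 0.0349), a call lost with the GC trend removed (0.55, edgeR adjusted p = 0.202).

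With PAE in both lines, 29 of the 50 were called (8 higher, 21 lower in SKOV3/DDP; 58.0% against 54.5%). FOLR1, the folate receptor alpha, was at 23.6, 22.0 and 16.8 CPM in SKOV3/DDP and at 0.116, 0.0508 and 0.158 CPM in SKOV3 (7.50 ± 0.55, edgeR adjusted p = 3.3e-08). PSPH was higher in SKOV3/DDP (1.77 ± 0.41, edgeR adjusted p = 0.00219), as was ENOPH1 (1.35 ± 0.20, edgeR adjusted p = 5.69e-05). TYMS, thymidylate synthase, was lower at 6.13, 4.75 and 6.77 CPM against 33.6, 43.8 and 40 CPM (-2.73 ± 0.25, edgeR adjusted p = 3.55e-07). In the folate interconversion list 4 of 9 were called (1 higher, 3 lower), and AHCY, CTH, MAT2B and MTHFD2L were not.

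In the comparisons that use untreated SKOV3, 34 of the 50 were called for PAE in SKOV3 (23 higher, 11 lower; 68.0% against 75.3%) and 41 between the untreated lines (24 higher, 17 lower; 82.0% against 81.8%). PAICS rose from 18.3, 12.2 and 19.5 CPM to 268, 234 and 295 CPM with PAE in SKOV3 (4.0 ± 0.23, edgeR adjusted p = 1.11e-08), and by 1.40 without the trend (edgeR adjusted p = 1.33e-05). DLD, a subunit shared by the glycine cleavage system, rose by 3.47 ± 0.30 (edgeR adjusted p = 7.4e-08) and by 0.70 without the trend (edgeR adjusted p = 0.0188). AHCY fell from 1342, 1513 and 1304 CPM to 185, 258 and 231 CPM (-2.62 ± 0.20, edgeR adjusted p = 2.57e-08), and by -1.35 without the trend (edgeR adjusted p = 1.31e-05). MTHFS, which returns 5-formyl-tetrahydrofolate to use, was at 15.2, 26.1 and 17.6 CPM in SKOV3 and 0.634, 0.379 and 0.428 CPM in SKOV3/DDP (-5.32 ± 0.38, edgeR adjusted p = 8.48e-09). MRI1 of methionine salvage was at 183, 163 and 158 CPM and at 0.173, 0.758 and 0.979 CPM (-8.04 ± 0.42, edgeR adjusted p = 7.3e-10). Without the trend MTHFS was at -5.70 (edgeR adjusted p = 3.1e-08) and MRI1 at -7.41 (edgeR adjusted p = 2.65e-09). FOLR1 was higher in untreated SKOV3/DDP (8.20 ± 0.58, edgeR adjusted p = 7.12e-09), and was at 10.34 without the trend (edgeR adjusted p = 4.09e-09). PPAT, the first enzyme of purine synthesis (3.50 ± 0.37, edgeR adjusted p = 4.44e-07), and CTH (3.45 ± 0.47, edgeR adjusted p = 6.56e-06) were also higher. Without the trend these 2 were at 0.78 (edgeR adjusted p = 0.0306) and 1.28 (edgeR adjusted p = 0.0192). FPGS was lower in SKOV3/DDP (-3.54 ± 0.22, edgeR adjusted p = 2.25e-09) and fell with PAE in SKOV3 (-3.12 ± 0.21, edgeR adjusted p = 1.48e-08), with -1.31 and -0.62 left without the trend (edgeR adjusted p = 1.64e-06 and 0.00208).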

How the data were processed

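Poly-T selected RNA of 12 libraries was made into NEBNext Ultra libraries. The submitters' processing notes name HISAT2 2.0.5 and StringTie 1.3.3b, besides edgeR and DESeq2, without their role. The counting program, annotation release and strand are not given in the sources used here. The files deposited by the authors hold raw read counts of genes, not normalized, 1 file a library, with coordinates on GRCh38 and no column of their own comparisons.

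Counts were analysed in R 4.3.3 with edgeR 4.0.16. Unnamed loci (0.126% to 0.678% of counts) stayed out. Genes passed filterByExpr (17133 genes, among them all 9 enzymes) and TMM scaling, and 1 quasi-likelihood fit of the 4 groups gave 5 contrasts, called at a Benjamini-Hochberg adjusted p under 0.05 over all genes tested. SEs were obtained from the fold change and the F statistic (log2 change over root F). CPM are TMM-scaled. On simulated data with 200 changed genes among 16453 tested between the untreated lines, 23.0% of changes of log2 1 and 85.0% of log2 2 were recovered. In the data that comparison called 81.8% of genes, and the adjusted threshold depends on the share of changed genes. The simulated rates therefore do not give the sensitivity of the tests reported. A group with 0 counts was compared at 3 counts, and counting intervals are 95% exact Poisson.

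GC content was taken from GENCODE 29 transcripts, which covered 88.1% of genes tested, and its trend and that of gene length were removed with splines of 5 degrees of freedom fitted to genes of at least log2 CPM 2. Ratios were compared by exact permutation tests of 3 libraries against 3. Alternatives were DESeq2 1.42.0, limma-voom (limma 3.58.1), library-size scaling, no filter, at least 10 counts in every library, a replicate block, only the groups compared, trend removal, the criteria of the study's methods (p under 0.05 and absolute log2 fold change over 2), leaving out each library, and, added after seeing the data, CBS and CBSL summed and ratios with the trend removed. Further pathway genes were named by rule: for each comparison and direction, at most 3 with the largest change among those called, where libraries did not overlap (no such condition for the difference between lines) and the higher group averaged 10 CPM or more, besides direct partners of the enzymes. The enzymes, lists and rule were chosen with earlier results of these data known. No pair of libraries was a duplicate: the smallest chi-square per gene within a group was 15.0.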

Additional observations from a re-analysis of the deposited data

Results flagged for a closer look

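The effect of PAE differed between SKOV3/DDP and SKOV3, by the interaction term of the edgeR fit, for the following genes, given as the log2 effect in SKOV3/DDP minus that in SKOV3. Among the enzymes described it was -1.97 for MTHFD1, -2.58 for MTHFD2, 2.61 for SHMT1, 2.72 for SHMT2 and -2.78 for MAT2A. With the GC and length trend removed the values were -1.21, -0.03, 2.42, 1.08 and -1.52, of which those of MTHFD1 and MAT2A stayed called. Among further genes of the pathway it was 5.69 for MRI1, 4.68 for MTHFS, 3.23 for PHGDH, -6.53 for AOX1, -4.78 for PAICS and -3.82 for DLD. With the trend removed these were 5.14, 5.16, 3.19, -4.99, -2.26 and -1.22, all called. AOX1 was near the limit of counting in SKOV3/DDP, with means of 0.387 CPM untreated and 0.303 CPM with PAE, as were MRI1 and MTHFS in untreated SKOV3/DDP at 0.637 and 0.481 CPM. Each difference uses the untreated SKOV3 libraries. The log2 ratio of MTHFD1L to MTHFD1 counts was lower with PAE in SKOV3 and higher with PAE in SKOV3/DDP, without overlap in either line, a difference of 2.93 between the lines that was not tested. With the trend removed it was 2.34, and the libraries of SKOV3 overlapped.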

How the results depend on the processing

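Of 703 log2 fold changes of single enzymes under the alternatives, 652 kept their direction and their side of the threshold, 27 lost and 11 gained a call, and 13 changed sign, all of them values that were not called as reported. Removing the GC and length trend lowered the enzymes called for PAE in SKOV3 from 8 to 4 and for the difference between the lines from 6 to 3, and turned MTHFD1 between the untreated lines to -0.65, a call, and ALDH1L1 in the difference between the lines to -0.75. Requiring at least 10 counts in every library, which left 6 of the 9 enzymes to test, gave 5 calls between the untreated lines, 5 for PAE in SKOV3, 1 for PAE in SKOV3/DDP and 2 for the lines with PAE. The criteria of the methods gave 4 enzymes for PAE in SKOV3, 0 for PAE in SKOV3/DDP (2 by the adjusted p of edgeR, DESeq2 and limma-voom) and 3 for the lines with PAE, and 3 and 14 further pathway genes in the last comparisons against 20 and 29. The shares of all genes called under that filter and these criteria are not given here, so these counts are no result about the enzymes. Scaling by library size only moved the all-gene median from 0.54 to 1.23 between the untreated lines, from 0.48 to 1.36 for PAE in SKOV3 and from 0.00 to 0.16 for PAE in SKOV3/DDP, and turned MTHFD1L for PAE in SKOV3 to 0.55 and ALDH1L1 in the difference between the lines to -0.05. MTHFD1 between the untreated lines, 0.05 as reported, was -0.01 with only the groups compared and -0.19 with DESeq2. All-gene shares called on leaving out 1 library at a time were 15.7% to 24.4% for PAE in SKOV3/DDP and 57.6% to 60.1% for the difference between the lines. They were 47.4% to 50.4% with PAE in both lines and 69.2% to 78.4% in the remaining comparisons. In the same fits the enzymes called ranged from 0 to 4, from 5 to 7 and from 5 to 6, with 8 throughout in the remaining comparisons. Sign changes there were MTHFD1 between the untreated lines (-0.21 to 0.46), MTHFD1L with PAE in both lines (-0.23 to 0.10) and, for PAE in SKOV3/DDP, SHMT2 (-0.59 to 0.54) and SHMT1 (-0.08 to 0.89). Removing the trend from the ratios, an alternative added after seeing the data, gave 2.69 for SHMT2 over SHMT1 between the untreated lines (1.20 as reported), -0.76 for MTHFD1L over MTHFD1 with PAE in SKOV3, and 0.65 and 0.10 for MTHFD2 over MTHFD1 between the untreated lines and with PAE in SKOV3. The ratio of SHMT2 to SHMT1 ranged from -1.54 to 0.70 for PAE in SKOV3 and from -0.90 to 0.37 for PAE in SKOV3/DDP. The replicate block kept the enzymes called at 8, 8, 2, 6 and 5 and gave 18 further genes for PAE in SKOV3/DDP. The numbers were not taken to pair the libraries, since 4 of 18 same-numbered pairs correlated above 0.1 (range -0.319 to 0.184) and 2 of 12 libraries correlated best with their own number. The cause of these shifts was not tested, apart from the smaller number of enzymes under the stricter filter. Depth limits NNMT and CBS in SKOV3/DDP, where 3 counts over a group stand for 0.0602 CPM untreated and 0.0498 CPM with PAE.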

Other observations

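Nicotinamide, the substrate of NNMT, is also salvaged to NAD, and its methylated form is oxidised by AOX1. In SKOV3, where NNMT fell with PAE, AOX1 rose from 0.532, 0.0852 and 0.170 CPM to 17.6, 25 and 15.6 CPM (log2 fold change 6.18 ± 0.63, edgeR adjusted p = 3.27e-07), and by 4.63 with the GC trend removed (edgeR adjusted p = 3.03e-05). In SKOV3/DDP it gave no call (-0.34 ± 0.65, edgeR adjusted p = 0.743), and with PAE in both lines it was lower there by -5.97 ± 0.59 (edgeR adjusted p = 7.43e-07). NMNAT2, which makes NAD from its mononucleotide, was at 11, 9.55 and 11.4 CPM in SKOV3_PAE and at 0.294, 0.0470 and 0.0550 CPM in SKOV3/DDP_PAE (-6.24 ± 0.64, edgeR adjusted p = 1.08e-06). NAPRT, which starts NAD synthesis from nicotinic acid, varied widely within groups, at 85.3, 46.1 and 126 CPM in SKOV3 and 12, 2.84 and 8.21 CPM with PAE (-3.48 ± 0.87, edgeR adjusted p = 0.00204), and the fall was -0.91 without the trend (edgeR adjusted p = 0.392). In SKOV3/DDP it was at 0.807, 26.8 and 18.1 CPM and at 2.75, 0.470 and 0.550 CPM with PAE (-3.58 ± 0.93, edgeR adjusted p = 0.012), which overlap, and -3.35 without the trend (edgeR adjusted p = 0.0184). NAMPT, the main enzyme of nicotinamide salvage, singled out after its values were seen, was at 203, 529 and 211 CPM in SKOV3/DDP, again highest in the second library, and at 276, 363 and 295 CPM with PAE.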
